A study of Mus musculus with 27 samples.

Results

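The genes described here encode the machinery that segregates chromosomes in mitosis. They were taken by name, 47 symbols of the 25209 genes listed in each of the 8 deposited tables, and all 47 were found in every table. The measurements are bulk mRNA-seq of V6.5 cells, a mouse embryonic stem cell line, in 27 libraries. Wild-type cells (WT) and 2 clones with a disrupted Zfp512b gene (KO4 and KO8) were sequenced in the naive state at day 0 (3 libraries of each genotype), after priming at day 2 in serum medium with LIF (2 of each), as cardiomyocyte cultures at day 7.5 (CM, 2 of each) and as neural progenitor cultures at day 10 after 5 µM retinoic acid (NPC, 2 of each). Naive cells were kept in LIF medium with a MEK and a GSK3 inhibitor, both differentiations passed through the primed state and hanging-drop embryoid bodies without LIF, and CM cultures received vitamin C. Each genotype other than WT is 1 clone, in which transcription terminators were inserted early in Zfp512b. Both clones had been selected among several because their growth was least changed, and no WT clone taken through the same editing is described, so an effect of Zfp512b and a property of a clone cannot be told apart. Nothing states that libraries of 1 group came from separate cultures, so p-values measure the spread between these libraries, which may be technical.

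Entry into mitosis is driven by CDK1 with cyclin A or B, and by the kinases PLK1 and Aurora A. Kinetochores, built on the centromeric histone CENP-A, couple chromosomes to spindle microtubules through the NDC80 complex, while the spindle checkpoint holds back the CDC20-activated ubiquitin ligase until every chromosome is attached. Securin then releases separase, condensin and topoisomerase keep the chromosomes compact and untangled, and kinesins, PRC1 and ECT2 organise the central spindle and the cleavage furrow. In embryonic stem cells, which divide rapidly, these genes are highly expressed, and many of them share promoter elements: the cell cycle genes homology region (CHR), bound by the DREAM and MuvB complexes, and CCAAT boxes, bound by NF-Y.

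Those elements were visible in the sequences. RefSeq (GRCm38.p6) gave a window from 250 bases before to 50 after the start for 40 of the 47 genes, 43 windows in all. The CHR core TTTGAA, searched on both strands, was present in 32 of 43 windows (74.4%), against 17.9% of all 32851 windows of this length. CCAAT, also on both strands, was present in 32 of 43 (74.4%), against 37.4% of all windows. Both occurred together in 28 of 43 (65.1%), against 6.95% of all. The CHR core began at -50 or later in 29 of the 43 windows. In the bin of 0 to 24 bases after the start it was found in 27.9% of the member windows and 1.31% of all windows. A match is a match of letters and was not tested as a binding site.

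**Figure D1:**
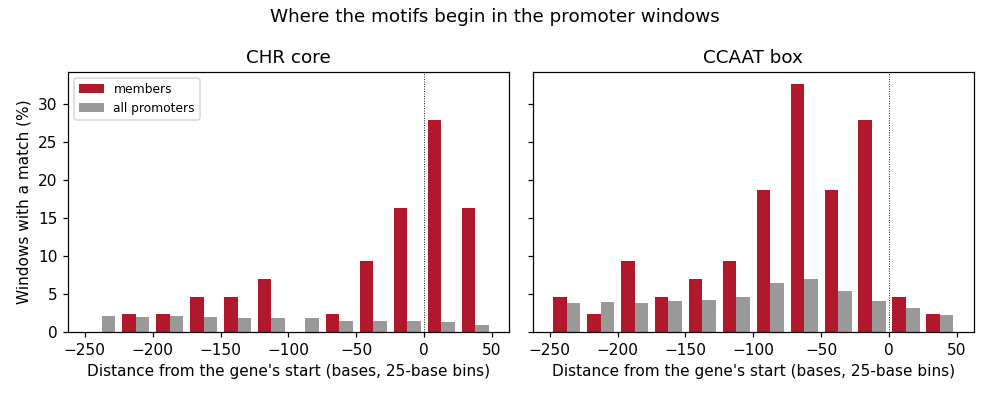
Share of promoter windows (y axis, %) in which the CHR core (left) or a CCAAT box (right) begins in each 25-base bin of distance from the gene's start (x axis), for the 43 windows of the mitotic genes (red) and all 32851 windows (grey). The red bars of the CHR core are tallest around the start, with 27.9% in the bin of 0 to 24, and those of CCAAT lie mostly before it.

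Parts of 8 promoters, from 120 bases before the start to 29 after it, are shown 5′ to 3′ on the strand of the gene, with TTTGAA and CCAAT on either strand in capitals (TTCAAA and ATTGG are the same letters read on the other strand). Cdk1, Ccnb2, Cdc20, Prc1 and Top2a stand for genes with both elements, Cenpn for the tested member with the largest fold change between genotypes, and Pttg1 and Kif18a, which also appear in the results, hold neither in the part shown. Their positions are Cdk1 at chr10:69352883-69353032 (minus strand), Ccnb2 at chr9:70421525-70421674 (minus strand), Cdc20 at chr4:118437314-118437463 (minus strand), Prc1 at chr7:80294331-80294480 (plus strand), Top2a at chr11:99024160-99024309 (minus strand), Cenpn at chr8:116921620-116921769 (plus strand), Pttg1 at chr11:43425952-43426101 (minus strand), Kif18a at chr2:109280618-109280767 (plus strand), all in GRCm38.p6.
Cdk1: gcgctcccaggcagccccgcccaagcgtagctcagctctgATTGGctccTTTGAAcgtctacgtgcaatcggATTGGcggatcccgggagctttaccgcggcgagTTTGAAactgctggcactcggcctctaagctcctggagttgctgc
Ccnb2: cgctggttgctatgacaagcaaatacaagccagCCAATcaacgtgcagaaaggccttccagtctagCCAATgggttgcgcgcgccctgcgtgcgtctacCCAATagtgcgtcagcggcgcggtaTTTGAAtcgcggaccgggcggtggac
Cdc20: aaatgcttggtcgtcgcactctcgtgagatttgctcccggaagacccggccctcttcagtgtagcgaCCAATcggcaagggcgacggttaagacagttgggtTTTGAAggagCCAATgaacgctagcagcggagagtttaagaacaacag
Prc1: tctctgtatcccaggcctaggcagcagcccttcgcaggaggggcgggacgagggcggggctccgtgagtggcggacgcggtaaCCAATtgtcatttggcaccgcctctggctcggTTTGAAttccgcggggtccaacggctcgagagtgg
Top2a: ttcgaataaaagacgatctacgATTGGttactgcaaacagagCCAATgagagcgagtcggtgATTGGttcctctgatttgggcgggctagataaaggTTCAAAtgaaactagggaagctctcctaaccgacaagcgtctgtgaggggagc
Cenpn: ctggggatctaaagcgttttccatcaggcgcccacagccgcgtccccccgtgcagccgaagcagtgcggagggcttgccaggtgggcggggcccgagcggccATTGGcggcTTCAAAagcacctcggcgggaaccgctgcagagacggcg
Pttg1: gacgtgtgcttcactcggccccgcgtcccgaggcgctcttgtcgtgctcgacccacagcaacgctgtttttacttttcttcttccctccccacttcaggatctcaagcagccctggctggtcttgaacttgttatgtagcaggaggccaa
Kif18a: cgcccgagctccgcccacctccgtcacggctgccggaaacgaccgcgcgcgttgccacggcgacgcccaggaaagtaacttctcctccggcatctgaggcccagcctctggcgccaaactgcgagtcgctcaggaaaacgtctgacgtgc
The Cdk1 stretch holds 2 CHR cores and 2 CCAAT boxes, that of Ccnb2 1 CHR core and 3 CCAAT boxes, and that of Cenpn 1 of each.

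The tables give, for each gene, the mean of the reads divided by size factors over WT and 1 clone (the base mean), and both tables of a stage contain the same WT libraries. The base means are written with 10 digits, and a set of whole reads that gives both means was accepted where it outweighed all others. The weight favours sets in which libraries of a group are alike and the clones lie near WT. Reads per library were solved in this way at the primed, NPC and CM stages, mostly for genes with up to about 1000 reads. This was possible for 4 of the 47 members at the primed stage, 8 in NPCs and 5 in CMs, 8 different genes in all: Birc5, Cenph, Cenpn, Kif18a, Nuf2, Pttg1, Spc24 and Spc25. They are the weakly expressed members and do not represent all 47. The other members had more reads, and for them, as for every member in naive cells, levels are the authors' means and only the difference between the clones could be derived. Libraries held about 34.2 to 39.7 M reads counted on genes in naive cells and 15.1 to 19.3 M at the other stages (M, megareads), as estimated from the tables. Library numbers used here (1 and 2) only tell libraries of a group apart and are not the replicate numbers of the labels.

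Zfp512b, the targeted gene, was examined first. In primed cells it had 899 and 943 normalised reads in the WT libraries, 189 and 216 in KO4 and 180 and 152 in KO8, a log2 fold change of -2.18 ± 0.12 (SE) in KO4 and -2.47 ± 0.12 in KO8 (limma, adjusted p = 5.85e-16 and 2.13e-17). In CMs the values were 1114 and 1047, 190 and 215, and 155 and 174, with log2 fold changes of -2.41 and -2.71 (limma, adjusted p = 1.35e-07 and 2.73e-06). The clones lay below every WT library at both stages. At the naive and NPC stages its reads per library were not solved.

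All 47 genes were expressed at every stage, and their share of the RNA was larger in naive and primed cells than in differentiated cultures. The stages had been normalised separately, so levels are given as rpm, a gene's share of the summed base mean of all genes on the usual parts-per-million scale, as the mean over both tables of a stage, without an error. The median of the 47 was 183 rpm in naive cells, 187 in primed cells, 99.3 in NPCs and 121 in CMs. Naive cells had the highest level for 22 members and primed cells for 23, and NPCs had the lowest for 39. From primed cells to NPCs 43 of 47 members were lower, with a median ratio of 0.584, whereas 47.8% of 6739 genes with base means of at least 300 at every stage were lower. From primed cells to CMs 43 were also lower, with a median ratio of 0.708 (50.7% of all genes lower). Members were higher in CMs than in NPCs in 43 of 47 cases, with a median ratio of 1.21 (46.6% of all genes higher). These levels mix WT and both clones, so a difference between stages also holds any knockout effect. It also holds any difference in preparation batch between the stages. In WT alone, scaled by the estimated reads of the whole library, 5 members could be compared between CMs and NPCs. Their log2 differences were 0.32 for Spc24, 0.17 for Cenph, 0.13 for Pttg1, -0.01 for Kif18a and -0.06 for Cenpn. The ratio of naive to primed had a median of 0.991, with 23 members higher in naive cells, and ran from 0.680 for Nuf2 to 2.31 for Pttg1. In bulk RNA, fewer dividing cells and less RNA per dividing cell cannot be told apart.

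**Figure D2:**
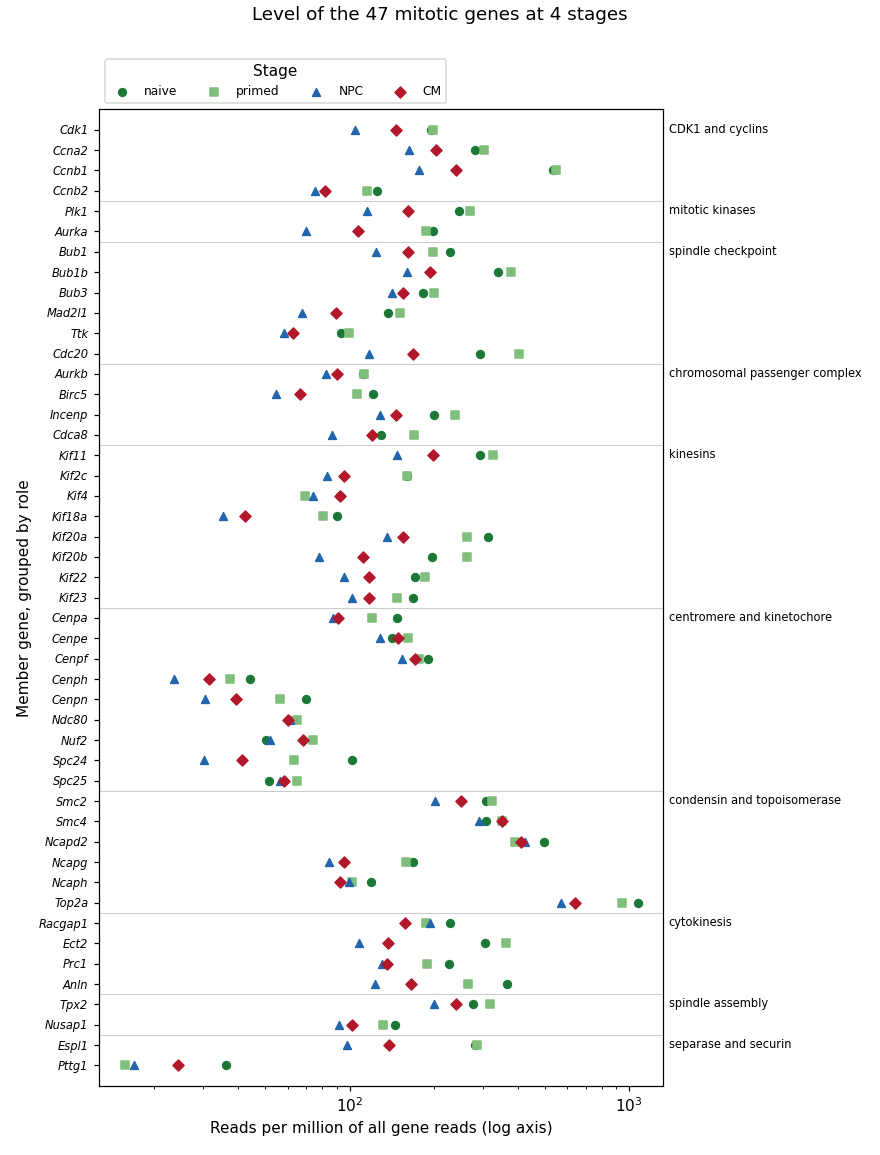
Level of each of the 47 genes in rpm (x axis, log scale) at the 4 stages (symbols), as the authors' means scaled to the summed base mean of all genes and averaged over the 2 tables of a stage, with genes grouped by role (y axis). Green symbols (naive and primed) lie to the right of the blue NPC triangles for most genes, and Top2a is highest at every stage.

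Cyclin B1, the mitotic kinases and CDC20 had less RNA in both differentiated cultures than in primed cells. Ccnb1, which encodes cyclin B1, had 536 rpm in naive cells, 548 in primed cells, 177 in NPCs and 241 in CMs. Cdc20, the activator of the anaphase-promoting complex, had 294, 405, 117 and 169 rpm, the lowest ratio of NPC to primed among the members (0.290). Other low ratios were those of Kif20b, a kinesin of cytokinesis (0.296), Ect2, the exchange factor that activates RhoA at the furrow (0.299), Ccnb1 (0.323) and Espl1, separase (0.343). Plk1 had 247, 270, 115 and 162 rpm, Aurka 199, 187, 69.8 and 107, and Cdk1 195, 198, 105 and 146. Cdk1 thus kept a larger share of its primed level in NPCs than its partner Ccnb1, with ratios of 0.529 and 0.323.

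Condensin and topoisomerase genes ranged widely in their ratio of NPC to primed. Top2a, topoisomerase II alpha, had the highest level of all members at each stage, with 1072, 943, 569 and 642 rpm, a ratio of 0.603. The condensin subunits Smc4 (308, 351, 292 and 351 rpm) and Ncapd2 (497, 391, 425 and 409 rpm) stayed near their primed level, whereas Smc2 had a ratio of 0.624 and Ncapg, another subunit, one of 0.528. Within the NDC80 complex, Ndc80 (60.5, 64.6, 61.0 and 60.0 rpm) and Spc25 (51.5, 64.7, 56.4 and 58.2) were nearly level. Nuf2 had 50.2, 73.8, 51.7 and 68.3 rpm, and Spc24, which pairs with Spc25, had 102, 63.1, 30.1 and 41.3 rpm. Pttg1, securin, was the lowest member at each stage, with 36.1, 15.7, 17.0 and 24.3 rpm, and was 1 of 4 members with less RNA in primed cells than in NPCs, together with Ncapd2, Kif4 and Racgap1. Per kilobase of annotated exons (mm9), levels in naive cells ran from 9.16 rpm per kb for Kif18a to 157 for Cdc20.

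The stage differences were tested in WT libraries for the members solved at both stages of a pair. Stage cannot be told apart here from day, culture medium or any preparation batch, so these p-values do not isolate differentiation. These fits were scaled on the solved, weakly expressed genes, and the scale matters: when NPCs were compared with primed cells, scaling by the estimated reads of the whole library instead, the scale nearest to rpm, moved the median of all genes tested from 0.09 to 0.61 on the log2 scale. In NPCs against primed cells 3 members were called lower on both scales (background 37.2% of 8778 genes lower on the first scale). Cenpn, which binds CENP-A nucleosomes, differed by -1.58 ± 0.09 (SE, limma, adjusted p = 5.59e-10) and by -1.07 with whole-library scaling (limma, adjusted p = 1.54e-08). Cenph differed by -1.11 ± 0.13 and by -0.61 (limma, adjusted p = 1.26e-06 and 0.000374), and Nuf2, a subunit of the NDC80 complex, by -1.07 ± 0.06 and by -0.56 (limma, adjusted p = 8.43e-10 and 3.20e-07). For Pttg1 the sign turned with the scale, -0.45 ± 0.18 on the first (limma, adjusted p = 0.0339) and 0.05 with whole-library scaling (limma, adjusted p = 0.799), and no direction is given. In CMs against primed cells 2 of 3, Cenpn and Cenph, were called lower on both scales (background 36.4% on the first). In CMs against NPCs 2 of 5, Spc24 and Cenph, were called higher on the first scale (background 29.2%), of which Spc24 was also called with whole-library scaling (limma, adjusted p = 0.0225) and Cenph was not (limma, adjusted p = 0.291). These shares are over few genes.

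In CM cultures, of the 5 members solved, 4 rose in KO4 (Cenpn, Kif18a, Spc24 and Cenph) and 3 in KO8 (Cenpn, Kif18a and Cenph), and none was called lower. Of the 9719 genes tested, 26.6% were called higher and 29.5% lower in KO4, and 11.6% and 12.2% in KO8. The median log2 fold change of the 5 was 0.72 in KO4 and 0.38 in KO8, against -0.01 and 0.00 over all genes. A call is an adjusted p under 0.05 in limma on log2 normalised reads, adjusted over all genes tested.

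Cenpn (chromosome 8, 119445640 to 119465403 in mm9, protein-coding, plus strand) had 399 and 413 normalised reads in the WT libraries, 1263 and 1245 in KO4 and 781 and 804 in KO8. The groups did not overlap, and the KO4 libraries were the highest. Its log2 fold change was 1.62 ± 0.08 (SE) in KO4 and 0.96 ± 0.08 in KO8 (limma, adjusted p = 9.36e-08 and 5.25e-05). Cenpn is the only member on chromosome 8. In CMs the genes of this chromosome had a median log2 fold change of 0.52 in KO4 and 0.52 in KO8, against -0.02 and -0.01 for genes on other chromosomes, and 55.9% of them were called higher in each clone. The part of this in the values of Cenpn was not tested.

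Kif18a, a kinesin that dampens chromosome movements at the metaphase plate (chromosome 2, 109120895 to 109181904, plus strand), had 603 and 550 normalised reads in WT, 1213 and 1125 in KO4 and 706 and 793 in KO8. Again both clones lay above WT without overlap, with log2 fold changes of 1.02 ± 0.09 and 0.38 ± 0.09 (limma, adjusted p = 7.87e-06 and 0.0154). The call in KO8 was lost without WT library 2 and without KO8 library 2 (limma, adjusted p = 0.0694 and 0.140).

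Spc24 (chromosome 9, 21559886 to 21564733, minus strand) had 591 and 663 reads in WT, 953 and 1115 in KO4 and 703 and 727 in KO8. It rose in KO4 by 0.72 ± 0.10 on the log2 scale (limma, adjusted p = 0.000153), and the difference of KO8 from WT, 0.19 ± 0.10, was not called (limma, adjusted p = 0.198). Cenph, a subunit of the constitutive centromere network (chromosome 13, 101529629 to 101545854, minus strand), had 451 and 469 reads in WT, 742 and 725 in KO4 and 667 and 579 in KO8, with log2 fold changes of 0.67 ± 0.10 and 0.43 ± 0.10 (limma, adjusted p = 0.000219 and 0.0100). Its call in KO8 was lost without KO8 library 1 (limma, adjusted p = 0.113). Pttg1 overlapped between groups, with 339 and 454 reads in WT, 425 and 491 in KO4 and 488 and 526 in KO8, and was not called (limma, adjusted p = 0.224 and 0.0929). Without WT library 2 it was called higher in both clones (limma, adjusted p = 0.0238 and 0.0193).

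**Figure D3:**
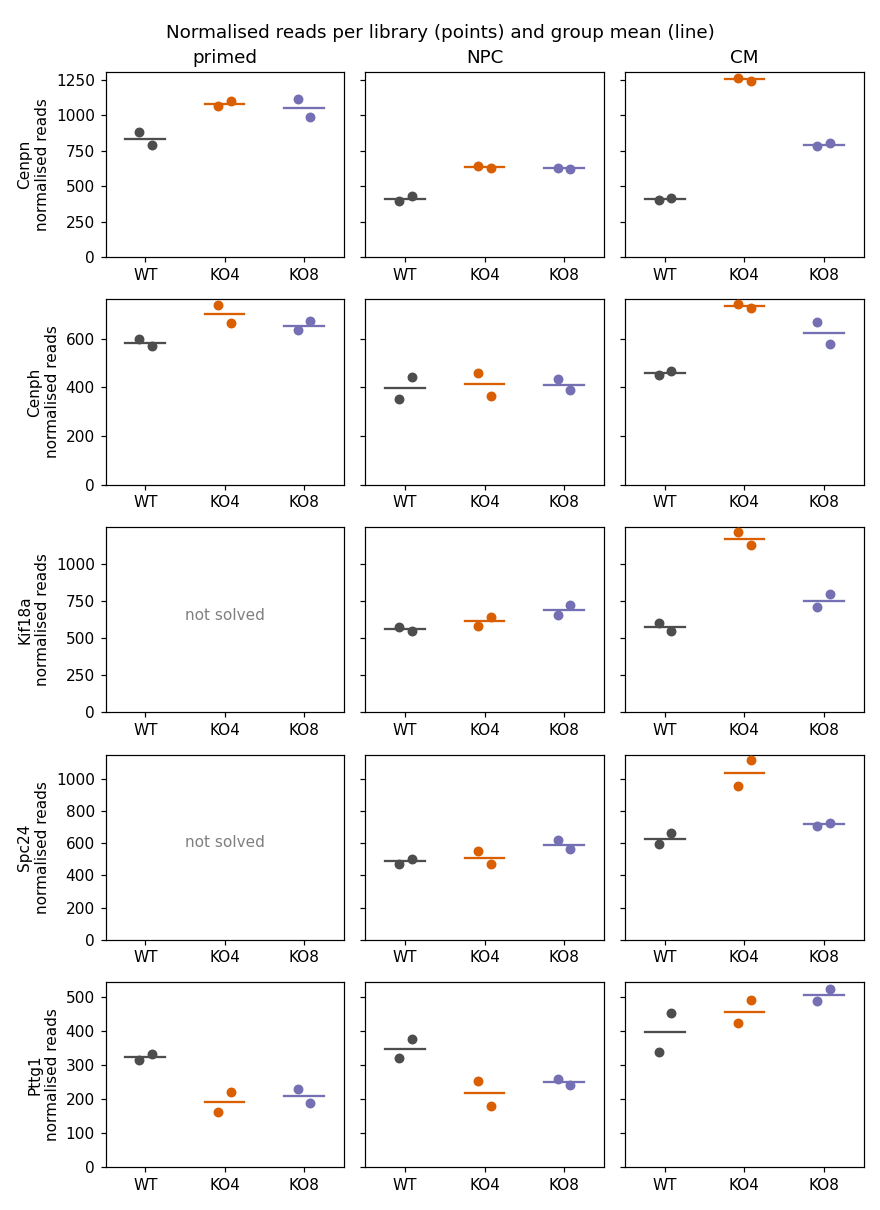
Normalised reads per library (points) and group means (lines) of 5 members (rows) at the primed, NPC and CM stages (columns), with the y axis starting at 0 and shared along a row. In CMs the KO4 points of Cenpn, Kif18a and Spc24 lie above all others, and in primed cells the Pttg1 points of both clones lie below WT.

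The clones themselves differed in CMs. In the same fit, Cenpn, Kif18a and Spc24 were called lower in KO8 than in KO4, 3 of 5 members (background 25.5% lower, with 28.9% of all genes higher in KO8), by -0.66 ± 0.08, -0.64 ± 0.09 and -0.53 ± 0.10 on the log2 scale (SE, limma, adjusted p = 5.78e-05, 0.000206 and 0.00124). For Cenph the difference was -0.24 ± 0.10 (limma, adjusted p = 0.0632).

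The base means extended this contrast to all 47 members, since subtracting the tables of a stage on the scale of their shared WT libraries leaves the mean of KO8 minus that of KO4. The difference is given as a percentage of the gene's level, the mean of both tables, and without a test. This level contains the WT libraries too, so the percentage is not the share by which KO8 lay below KO4. In CMs Cenpn had mean normalised reads of 406 in WT, 1254 in KO4 and 793 in KO8, and its percentage was -60.3%. On solved genes it departed from the value of the solved reads by at most 0.168% of the level. The solved reads were chosen to give these same means, so this is not a separate check of the difference. In CMs 40 of 47 members were lower in KO8 than in KO4, with a median of -22.9%, while 49.9% of 8835 genes with a level of at least 300 were lower, with a median of 0.05%. By more than 20% of their level, 28 members were lower in KO8 (background 25.2%) and 0 higher, where the upper quartile of all genes was 21.6%. The typical standard error of such a difference, from the spread of solved genes, was 7.01% in CMs. For this value, here and at the other stages, each clone's spread was taken as a percentage of its own mean, not of the level. It is therefore only a rough guide, and the solved genes had fewer reads than most members. Errors of a library are shared by genes, so the members are not independent.

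The spindle checkpoint genes were all lower in KO8, with a median of -35.2% over 6: Mad2l1, which forms the inhibitory complex with CDC20, at -46.3%, Bub1 at -36.5%, Bub1b at -36.2%, Cdc20 at -34.3%, Ttk at -27.2% and Bub3 at -14.8%. All 8 kinesins were lower too, from Kif18a at -50.9% to Kif4 at -16.9%, as were the 4 chromosomal passenger genes, from Incenp at -28.6% to Birc5 at -11.2%. The largest differences were those of Cenpn (-60.3%) and Ect2 (-59.6%). Plk1 differed by -41.0%, Ncapg by -44.3%, Cenpf, a kinetochore protein of late cell cycle, by -43.3% and Espl1 by -36.5%. Members near or above 0 were Smc4 (-1.72%), Nusap1 (0.55%), Racgap1 (1.84%), Smc2 (2.63%), Prc1 (3.46%), Cdk1 (5.39%), Spc25 (6.83%) and Pttg1 (14.0%). The cyclins that partner Cdk1 were lower in KO8, Ccnb1 by -32.6%, Ccna2 by -23.9% and Ccnb2 by -23.6%. The value of Cdk1 itself was smaller than the typical standard error of 7.01%, so its sign is not determined.

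**Figure D4:**
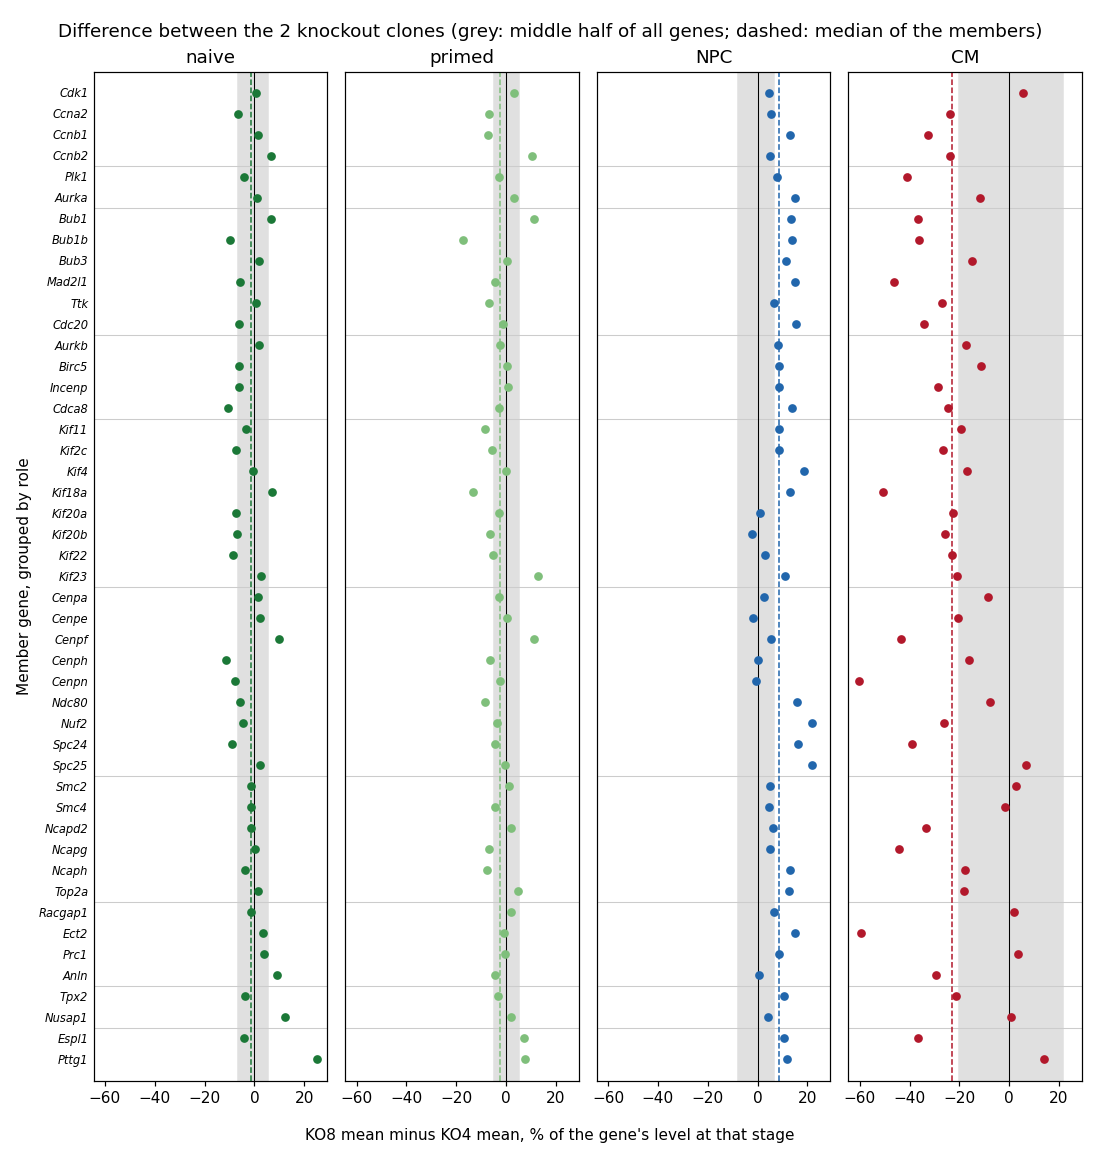
Mean of KO8 minus mean of KO4 for each of the 47 genes (y axis, grouped by role), as a percentage of the gene's level (x axis), at 4 stages (panels), with the middle 50% of all genes in grey and the median of the members dashed. The points scatter around 0 in naive and primed cells, lie to the right of 0 for 44 genes in NPCs and to the left for 40 in CMs.

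Markers of other cell types differed between the same CM libraries. Nkx2-5, a cardiac transcription factor, had a mean of 1196 normalised reads in WT, 15.0 in KO4 and 1373 in KO8, and all 6 cardiomyocyte markers were lower in KO4 than in KO8. Pax6, a marker of neural progenitors, had 59.5, 2875 and 92.2, and all 5 neural progenitor markers were higher in KO4 than in KO8. Of 5 naive pluripotency genes, 3 were called lower and 1 higher in KO8 than in KO4, with Nanog at 433, 1351 and 158 and Klf4 at 271, 103 and 173. Both endoderm genes tested were called higher in KO8 than in KO4, with Foxa2 at 478, 67.1 and 751, and from the base means Gata6 was higher in KO8 by 185% and Col3a1, a mesenchymal collagen, by 237% of its level. The part of these cell types in the mitotic genes was not tested.

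In NPC cultures few members were called against WT. Cenpn rose in both clones, with 393 and 428 normalised reads in WT, 642 and 628 in KO4 and 631 and 624 in KO8, log2 fold changes of 0.63 ± 0.11 and 0.61 ± 0.11 (limma, adjusted p = 0.00808 and 0.00659). Chromosome 8 genes had median log2 fold changes of 0.53 and 0.53 there. Spc25, the partner of Spc24, rose in KO8 alone, with 877 and 902 reads in WT, 945 and 950 in KO4 and 1079 and 1222 in KO8, a log2 fold change of 0.37 ± 0.09 (limma, adjusted p = 0.0262), and the difference between the clones was not called (limma, adjusted p = 0.163). These were 1 of 8 members called higher in KO4 and 2 of 8 in KO8, with 0 lower in either (limma and voom alike). At an unadjusted p under 0.05, 1 was higher and 1 lower in KO4, and 5 were higher and 1 lower in KO8, the lower one being Pttg1. At an adjusted p under 0.05 the background was 4.86% higher and 3.01% lower in KO4, and 7.42% and 4.34% in KO8. The share of all genes at an unadjusted p under 0.05 was not counted. The call of Cenpn in KO4 was lost without either WT library and without either KO4 library (limma, adjusted p = 0.0648 to 0.109), that of Cenpn in KO8 without WT library 1 (limma, adjusted p = 0.0898), and that of Spc25 without any library but KO8 library 1 (limma, adjusted p up to 0.184).

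Pttg1 had 322 and 377 reads in WT NPCs, 255 and 181 in KO4 and 260 and 243 in KO8. The clones lay below WT without overlap, but the log2 fold changes of -0.70 ± 0.19 and -0.47 ± 0.19 missed the threshold (limma, adjusted p = 0.0548 and 0.150). The difference in KO4 passed it when KO8 library 1 or 2 was left out (limma, adjusted p down to 0.00178). Kif18a, Nuf2, Spc24, Cenph and Birc5, the survivin subunit of the passenger complex, were not called, with log2 fold changes between -0.13 and 0.13 in KO4 and between -0.01 and 0.29 in KO8. Nuf2 had 865 and 860 reads in WT, 811 and 834 in KO4 and 1044 and 978 in KO8.

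Across all members in NPCs, KO8 was above KO4 for 44 of 47, the opposite side from CMs, with a median of 8.50% of the level (all 8940 genes -0.83%, with 47.1% higher in KO8). The typical standard error of 1 gene was 8.82%, near the size of this median, and the errors are shared between genes. By more than 20%, 2 members were higher in KO8, Nuf2 (21.8%) and Spc25 (21.7%), against a background of 6.49%. Kif4 (18.8%), Spc24 (16.2%), Ndc80 (15.9%), Cdc20 (15.2%) and Aurka (15.1%) followed, and Cenpn (-0.59%), Cenpe (-1.73%) and Kif20b (-2.39%) were the 3 members below 0. In the limma fit 0 of the 8 solved members were called between the clones in NPCs (0 with voom, with backgrounds of 0.943% higher and 0.632% lower). At an unadjusted p under 0.05, for which no background was counted, 2 were higher in KO8. Of other cells' markers, Tnnt2, Tagln and Acta2, genes of muscle, were called higher in KO8 than in KO4 in the same NPC libraries (limma, adjusted p = 0.0114, 0.0174 and 0.0235). They were 1 of 4 tested cardiomyocyte markers and 2 of 2 tested smooth muscle and fibroblast markers. In the base means of these lists Myl7 differed by -31.2% and Col3a1 by -25.2% of the level, while Myh6, Myh7, Actc1, Nkx2-5 and Col1a1 had higher values in KO8. From the base means all 8 pluripotency genes had higher values in KO8, Pou5f1 by 92.2% and Nanog by 78.8% of the level, but 0 of the 7 tested were called (limma, adjusted p = 0.0643 and 0.0862 for these). The neuron markers also had higher values in KO8 (Tubb3 80.3%, Map2 57.0% and Dcx 26.2%). The endothelial markers had lower ones (Pecam1 -30.8%, Kdr -26.9% and Cdh5 -15.3%), all without a test. Of 4 tested neural progenitor markers, 0 were called between the clones, and 3 were called higher than WT in each clone. The part of these markers in the values of the mitotic genes was not tested. The cultures also contained Gata6 at 391 to 445 rpm and Col3a1 at 516 to 581 rpm, genes of endoderm and mesenchyme, beside Nes at 258 to 261 rpm.

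In primed cells the tested members moved in both directions. Pttg1 (chromosome 11, 43233752 to 43239753, minus strand) fell in both clones, with 317 and 333 normalised reads in WT, 164 and 220 in KO4 and 232 and 190 in KO8, log2 fold changes of -0.77 ± 0.14 and -0.63 ± 0.14 (SE, limma, adjusted p = 0.000115 and 0.00181). Cenpn rose in both, with 879 and 792 in WT, 1063 and 1100 in KO4 and 1114 and 988 in KO8, log2 fold changes of 0.37 ± 0.07 and 0.33 ± 0.07 (limma, adjusted p = 0.000193 and 0.00119), where chromosome 8 had medians of 0.44 and 0.46. Cenph rose in KO4 by 0.26 ± 0.08 (limma, adjusted p = 0.0256), with 598 and 570 reads in WT, 737 and 664 in KO4 and 635 and 673 in KO8, and was not called in KO8 (limma, adjusted p = 0.210). Nuf2 had 1243 and 1226 in WT, 1280 and 1275 in KO4 and 1234 and 1211 in KO8, and was called in neither clone (limma, adjusted p = 0.616 and 0.914). In all, 2 of 4 members were called higher and 1 lower in KO4 (background 9.71% and 9.37%), and 1 higher and 1 lower in KO8 (background 8.24% and 6.11%). The call of Cenph was lost without either WT library or KO4 library 1 (limma, adjusted p = 0.0568, 0.172 and 0.255), that of Cenpn in KO8 without WT library 2 or KO8 library 1 (limma, adjusted p = 0.0649 and 0.0808), and that of Pttg1 in KO8 without KO8 library 2 (limma, adjusted p = 0.0768).

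**Figure D5:**
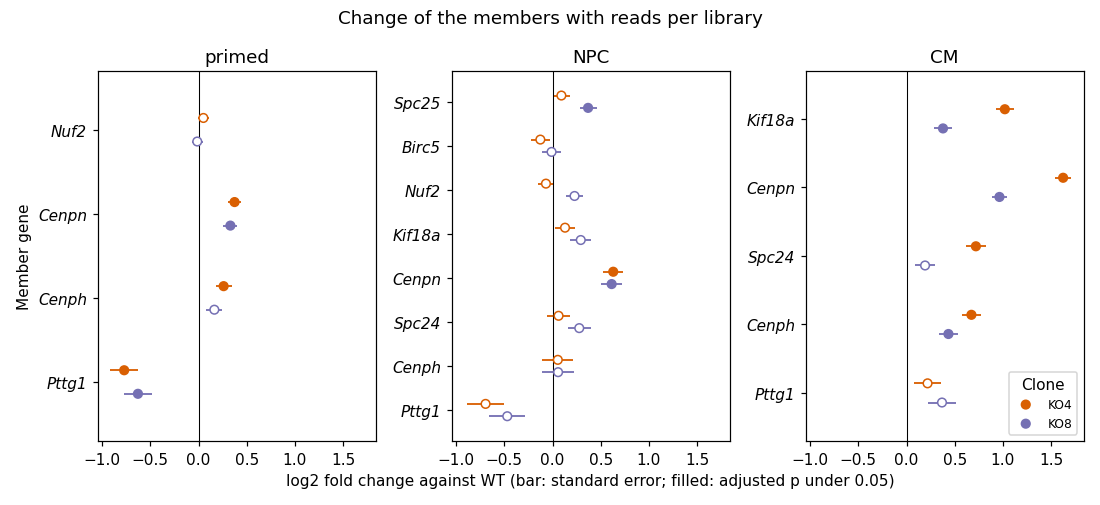
Log2 fold change against WT (x axis) of each solved member (y axis) in KO4 and KO8 at 3 stages (panels), with the standard error as a bar and filled points for adjusted p under 0.05. Pttg1 lies left of 0 at the primed and NPC stages and right of it in CMs, and the KO4 points lie right of the KO8 points in CMs except for Pttg1.

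Between the clones, primed cells gave no call. Of the 4 solved members 0 were called between KO8 and KO4 (limma, 0 with voom, with backgrounds of 1.82% higher and 0.986% lower), and 0 passed an unadjusted p under 0.05. Over all 47 members the median difference was -2.39% of the level, with 29 lower in KO8 (all genes -0.05% and 50.2% lower) and a range from -17.4% for Bub1b, the checkpoint kinase BubR1, to 12.9% for Kif23, a component of centralspindlin, and the typical standard error was 6.45%.

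In naive cells the clones differed little over the 47 members, with a median of -1.36% of the level (all 9245 genes -0.88%, with 54.2% lower in KO8), 26 lower and 21 higher in KO8. Differences ran from -11.5% for Cenph to 24.9% for Pttg1, the only member past 20% (background 5.05% higher). The others beyond 10% were Cdca8, a subunit of the chromosomal passenger complex (-10.7%), and Nusap1, a microtubule-bundling protein (12.1%). No spread between libraries was available at this stage, so these have no error. The authors' mean of Pttg1 was the lowest of the members in naive cells too.

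The knockout effect, the mean of both clones minus WT, was then compared between stages in fits that joined the libraries of 2 stages. Between CMs and NPCs 4 of 5 members had a higher effect in CMs (background 8.19%): Pttg1 by 0.86 ± 0.21 on the log2 scale, Cenpn by 0.66 ± 0.10, Cenph by 0.49 ± 0.16 and Kif18a by 0.48 ± 0.12 (SE, limma, adjusted p = 0.00951, 0.000384, 0.0492 and 0.0111). With whole-library scaling the call of Cenph was lost (limma, adjusted p = 0.0667). The difference for Spc24 was 0.28 ± 0.13 (limma, adjusted p = 0.167). Between CMs and primed cells all 3 members solved at both had a higher effect in CMs (background 10.7%), Pttg1 by 1.00 ± 0.19, Cenpn by 0.94 ± 0.10 and Cenph by 0.34 ± 0.11 (limma, adjusted p = 0.00122, 3.72e-06 and 0.0309). For Pttg1 the effect was -0.59 in NPCs, -0.69 in primed cells and 0.27 to 0.30 in CMs, where it was not called against WT. Between NPCs and primed cells 0 of 4 members were called (limma, smallest adjusted p = 0.190, background 2.37% higher and 2.15% lower).

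Other mitotic genes were counted in the same fits, from lists of complexes and functions. In CMs, where 26.6% of all genes were called higher in KO4 and 11.6% in KO8, 18 of 20 further kinetochore genes rose in KO4 and 6 in KO8, and 0 fell. Cenpu, which anchors PLK1 at kinetochores and also lies on chromosome 8, had a log2 fold change of 1.27 in KO4 and 0.65 in KO8, and Oip5, which loads CENP-A, 0.65 and 0.48. Of 5 other spindle genes 4 rose in KO4 and 2 in KO8, with Kif14 at 0.93 and 0.72. Of 4 regulators of entry and exit 4 and 3 rose, with the phosphatase Cdc25b at 0.72 in KO4 and 1.11 in KO8. Both tested cohesin genes rose in KO4, Sgo1, the protector of centromeric cohesin, by 0.91 and Cdca5 by 0.70, and Sgo1 also in KO8 by 0.52. Of 4 subunits of the anaphase-promoting complex 2 rose in KO4 and 1 in KO8, and of 6 regulators of mitotic genes 4 and 2. In NPCs 1 of 19 kinetochore genes rose in each clone (background 4.86% and 7.42%), Cenpt, which lies on chromosome 8, and in primed cells 2 and 1 of 17 rose (background 9.71% and 8.24%) and 1 fell in each (9.37% and 6.11%). The proliferation marker Mki67 was not solved at any stage. Its clone difference, KO8 minus KO4 without a test, was 6.48% of the level in naive cells, 22.6% in primed cells, 5.15% in NPCs and 4.5% in CMs. The primed value was above that of any of the 47 members at that stage.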

How the data were processed

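The authors trimmed reads (Trim Galore 0.6.7), aligned them to mm9 (HISAT2 2.2), counted them per gene (featureCounts) and ran DESeq2 1.46.0, per the study's methods and the submitters' processing notes. The deposited signal values used here are the base means, the mean of size-factor-normalised counts over WT and 1 clone. The authors' fold changes, standard errors and p-values in the same tables were not used.

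Reads per library were derived from the base means by a lattice search with size factors read from the smallest values, and accepted where 1 set of reads held a weight of at least 0.99. Libraries were assigned to WT when they occurred in both tables of a stage and otherwise to the clone of the table. Between base means of 10 and 1000, 9191 of 9191 genes were solved in primed cells, 9517 of 9559 in NPCs and 9217 of 9219 in CMs. Between 1000 and 1500, 137 of 1109 genes were solved in primed cells, 108 of 1464 in NPCs and 479 of 1469 in CMs. Nuf2 in primed cells and Spc25 in NPCs lay in this range. Genes above 1500 were not searched and naive cells (9 libraries) were not solved. The weight favours similar libraries within a group, and its effect on the standard errors was not tested. The search was tested on simulated data drawn with the same spreads that the weight assumes, so that test does not check those assumptions. A gene with 2 reads in 1 library was more frequent than one with 1, so single counts may not be independent fragments (the read layout is not given in the sources used here), and the variance between libraries of a group was 2.22 to 6.34 times that of counting.

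Log2(normalised reads + 1) of genes with a mean of at least 10 was tested with limma 3.58.1 (R 4.3.3, trend, median-of-ratios scaling), with Benjamini-Hochberg adjustment over 9331, 9649 and 9719 genes (primed, NPC and CM). A fold change on this scale is slightly understated for low genes. The planned single fit of all 27 libraries was replaced by fits of 1 stage or of 2 stages (12 libraries), since naive cells were not solved. The selection of genes under the search limit leaves out members that were high in any group. Named members are those solved, those at either end of a range and examples of each role. The 47 members, the other lists and the marker genes were chosen with earlier results of these data known. Alternatives were other scalings, filters, pseudocounts, weights and fits, and leaving out each library.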

Additional observations from a re-analysis of the deposited data

Results flagged for a closer look

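The knockout effect, the mean of both clones minus WT, differed between stages for these members by the test of the difference itself. It was higher in CMs than in NPCs by 0.86 on the log2 scale for Pttg1, 0.66 for Cenpn, 0.49 for Cenph and 0.48 for Kif18a (limma, adjusted p = 0.00951, 0.000384, 0.0492 and 0.0111), and the call of Cenph was lost with whole-library scaling (limma, adjusted p = 0.0667). It was higher in CMs than in primed cells by 1.00 for Pttg1, 0.94 for Cenpn and 0.34 for Cenph (limma, adjusted p = 0.00122, 3.72e-06 and 0.0309).

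The clones differed from each other in CMs. KO8 minus KO4 was -0.66 on the log2 scale for Cenpn, -0.64 for Kif18a and -0.53 for Spc24 (limma, adjusted p = 5.78e-05, 0.000206 and 0.00124), with every KO8 library below every KO4 library.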

How the results depend on the processing

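Without a filter on low counts, 1 member was called higher in KO4 and 0 higher and 0 lower in KO8 in primed cells, and 1 higher in KO8 in NPCs. With an absolute log2 fold change of at least 0.5 required, 0 were called higher in either clone in primed cells, and 1 in KO8 in NPCs and 1 in KO8 in CMs. Fits of WT and 1 clone called 1 member lower in KO4 (Pttg1) and 1 higher in KO8 in NPCs. With genes of a base mean under 1000 only, chosen after seeing the data, the medians in primed cells were 0.26 in KO4 and 0.16 in KO8, and 1 member was called higher in KO8 in NPCs. With a weight of at least 0.9, also chosen after seeing the data, 1 member (Kif18a) was called lower in KO8 than in KO4 in primed cells, 5 were called higher in KO8 in CMs, and the median of KO8 minus KO4 in CMs was -0.37. With total count scaling and with scaling by the whole library's reads (the second chosen after seeing the data), 1 member (Spc24) was called higher in WT CMs than in WT NPCs. The median of all genes there was 0.00 in the fits reported, -0.12 with total count scaling and -0.20 with whole-library scaling. With whole-library scaling the WT difference of Pttg1 between NPCs and primed cells was reversed, at 0.052.

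Leaving out 1 library, members called higher ranged from 1 to 2 in KO4 and 0 to 1 in KO8 in primed cells, and those lower in KO8 from 0 to 1. In NPCs they ranged from 0 to 1 higher and 0 to 1 lower in KO4, 0 to 3 higher in KO8 and 0 to 1 higher in KO8 than in KO4, whose median ranged from 0.073 to 0.23. In CMs the median ranged from 0.64 to 0.84 in KO4, and from -0.60 to -0.42 for KO8 minus KO4. No called value changed sign when 1 library was left out. Where a lone library remained in a group, it was assumed to vary like the others. The cause of these changes was not tested.

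No paired analysis was possible because the derived libraries carry no replicate number. Members above the search limit, most of the 47, have no test, so counts of calls describe weakly expressed members, and 2 libraries per group limit the precision. A clone difference rests on 2 libraries a clone (3 in naive cells).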
